A study of Mus musculus with 18 samples.

Results

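The genes described here are 10 scavenger and mannose receptors of macrophages: Marco, Msr1, Cd36, Mrc1, Scarb1, Scarb2, Stab1, Olr1, Colec12 and Cd163. They were taken by symbol from the 22852 genes of the count tables, and each was found in all 18 tables. All 10 passed the expression filter that left 11305 genes for testing, Olr1 through its LPS-treated groups alone. Marco had 11, 17 and 7 counts in the unstimulated libraries. These did not meet the filter by themselves, so Marco also needed its LPS-treated groups to pass. The RNA-Seq libraries came from mouse bone marrow-derived macrophages (BMDMs), which the study grew from the marrow of female C57BL/6 mice in medium conditioned by L929 cells, with 3 biological replicates in each of 6 groups. Unstimulated BMDMs received neither agent. LPS-primed BMDMs received LPS at 100 ng/ml for 24 h. The same priming followed by a dose of 10 ng/ml for 3 h gave LPS-tolerant BMDMs. The study removed the medium after priming and gave this dose in fresh medium. No primed group had fresh medium without LPS. A further 3 samples of each of these LPS-primed and LPS-tolerant states had been given carboplatin, a platinum drug that crosslinks DNA, at 25 µM before priming. LPS-stimulated BMDMs received the 10 ng/ml dose alone, for 3 h. All exposures of 24 h were at 100 ng/ml and those of 3 h at 10 ng/ml. Dose and duration therefore cannot be told apart. The design therefore asks how the receptor transcripts differed after priming, after a first and after a second exposure to LPS, and with carboplatin. No group received carboplatin without LPS, and cultured BMDMs lack the tissue that surrounds macrophages in the body.

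Scavenger receptors are surface proteins that bind modified lipoproteins, bacterial components and dying cells and carry them into the cell. MARCO, MSR1 and COLEC12 are the class A or collagen-bearing members, which bind bacteria and modified lipoproteins. CD36, SCARB1 and SCARB2 form class B: CD36 takes up fatty acids and oxidized LDL, SCARB1 exchanges cholesterol with HDL, and SCARB2 (also called LIMP-2) sits in lysosomes and delivers glucocerebrosidase to them. OLR1 (LOX-1) is a lectin-like receptor for oxidized LDL, STAB1 (stabilin-1) clears ligands of the extracellular matrix, and CD163 takes up complexes of haemoglobin with haptoglobin. MRC1 (CD206) binds mannose-bearing sugars, and its transcript is widely used as a marker of alternatively activated macrophages.

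The promoters of Olr1 and Marco are shown because the largest differences between groups were in these transcripts. Both are RefSeq sequences of the 250 bases before the transcription start, placed on GRCm39 by exact match. That of Olr1 lies at chr6:129484129-129484378 on the minus strand and that of Marco at chr1:120432754-120433003 on the minus strand, each directly upstream of the annotated gene. Capitals mark the matches to 6 motifs searched on both strands.
Olr1: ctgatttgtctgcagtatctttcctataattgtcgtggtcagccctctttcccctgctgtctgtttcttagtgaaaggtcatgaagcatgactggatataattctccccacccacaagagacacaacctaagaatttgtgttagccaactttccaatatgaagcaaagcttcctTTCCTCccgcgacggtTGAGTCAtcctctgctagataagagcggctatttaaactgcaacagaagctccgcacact
Marco: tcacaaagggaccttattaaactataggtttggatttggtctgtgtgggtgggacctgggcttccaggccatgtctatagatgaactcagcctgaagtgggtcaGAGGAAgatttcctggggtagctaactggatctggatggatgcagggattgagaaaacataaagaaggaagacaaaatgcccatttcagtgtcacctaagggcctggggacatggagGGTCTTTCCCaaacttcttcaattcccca

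The Olr1 promoter holds an AP-1 motif (TGANTCA) that begins 60 bases before the start, and a PU.1 motif (GAGGAA) on the opposite strand at 76 bases. The Marco promoter holds an NF-κB motif (GGGA, any 4 bases, then CC) on the opposite strand at 29 bases and a PU.1 motif at 146 bases. Neither window holds a match to the NRF2 (TGACNNNGC), STAT (TTCNNNGAA) or ISRE (GAAA, any 2 bases, then GAAA) letters searched. Among 32851 promoters of the same length, 17.6% held the NF-κB letters, 6.75% those of AP-1, 23.3% those of PU.1, 10.2% those of NRF2, 7.02% those of STAT and 2.98% those of ISRE. A match is a run of letters and not a measured binding site. Of the 10 genes, 7 had a promoter in the table searched, and the Cd36, Mrc1 and Cd163 windows also held the NF-κB letters.

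Libraries had between 6869667 and 14708099 counts on genes, with a median of 8986463. The 10 macrophage markers examined, among them Adgre1, Csf1r and Cd68, were detected in every group and summed to between 22820 and 40410 CPM per library (CPM are counts scaled to a common library size). All 6 T and NK cell markers had 0 counts in all 18 libraries, and none of the 5 B cell and 6 erythroid markers exceeded 3 counts. Summed dendritic cell markers reached at most 1.49 CPM. The 5 stromal markers summed to 0.0881 to 0.879 CPM in unstimulated, 2.18 to 5.30 in LPS-stimulated and 1.97 to 8.85 CPM in the 4 groups with 24 h of LPS. The 6 endothelial markers summed to 8.30 to 17.1 CPM in unstimulated and 17.2 to 25.9 CPM in LPS-stimulated cells. They summed to 4.84 to 18.9 CPM in those 4 groups. Kdr had the highest mean of them in every group but LPS-stimulated, where Cdh5 (12.9 CPM) did. Of 5 mast cell markers, 4 were at 0 throughout, and the sum was at most 4.31 CPM in unstimulated, 1.41 in LPS-stimulated and 0.221 CPM in those 4 groups. The 9 neutrophil markers summed to 4.83 to 8.28 CPM in unstimulated, 10.7 to 18.1 in LPS-stimulated and 28.8 to 336 CPM in the 4 LPS-primed and LPS-tolerant groups. Ly6g and Mpo were at 0 in all libraries and 3 others never exceeded 3 counts. Mmp8 and S100a8 carried the sum. Since these are bulk samples, fewer cells of a type and less RNA per cell cannot be told apart.

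**Figure D1:**
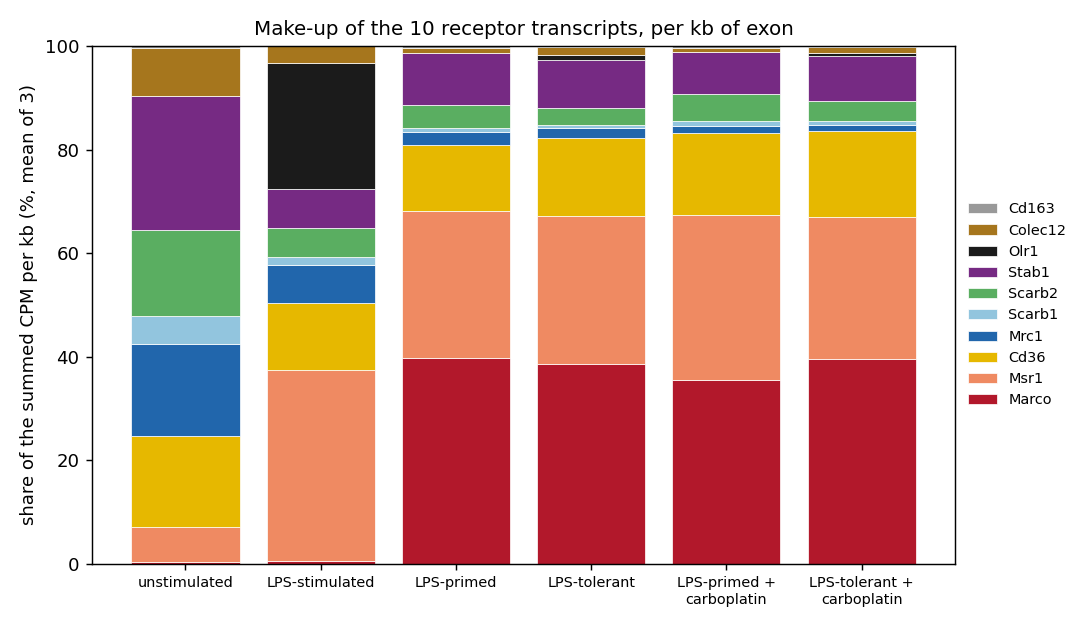
Share of each receptor in the summed level of the 10 transcripts, in CPM per kb of exon, as the mean of 3 samples per group (y axis, percent) by group (x axis). Stab1, Mrc1, Cd36 and Scarb2 made up most of the sum in unstimulated BMDMs, Msr1 and Olr1 in LPS-stimulated BMDMs, and Marco and Msr1 in the 4 groups that received the 100 ng/ml dose.

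The receptors that made up most of the total differed with the LPS exposure. Per kb of exon, the 10 transcripts summed to 178 ± 42.8 CPM per kb in unstimulated BMDMs (mean ± SD, n = 3), 342 ± 86.0 in LPS-stimulated, 597 ± 112 in LPS-primed and 751 ± 211 in LPS-tolerant BMDMs. With carboplatin the sums were 541 ± 134 in LPS-primed and 652 ± 154 in LPS-tolerant BMDMs. In unstimulated cells Stab1 held 26.0% ± 5.38 of the sum, Mrc1 17.7% ± 4.005, Cd36 17.6% ± 4.71 and Scarb2 16.5% ± 4.81. In LPS-stimulated cells Msr1 held 36.8% ± 5.32 and Olr1 24.3% ± 4.27, while Marco held 0.602% ± 0.0786. In LPS-primed cells Marco held 39.7% ± 16.9 and Msr1 28.4% ± 8.05, and in LPS-tolerant cells 38.5% ± 21.0 and 28.7% ± 8.02. The lengths merge all annotated exons of a gene, 12624 bases for Cd36 and 1925 for Marco, and can exceed those of the transcripts present. Without division by length, the LPS-tolerant means were 1297 CPM for Msr1, 1295 for Cd36 and 614 for Marco. The ranking by share thus depends on the lengths used. Mrc1, the second of the 10 in unstimulated cells, held 2.42% ± 1.19 in LPS-primed and 1.77% ± 1.16 in LPS-tolerant BMDMs. The wide spread of the Marco share came from replicate 1, in which it was 20.1% in LPS-primed and 14.6% in LPS-tolerant cells.

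**Figure D2:**
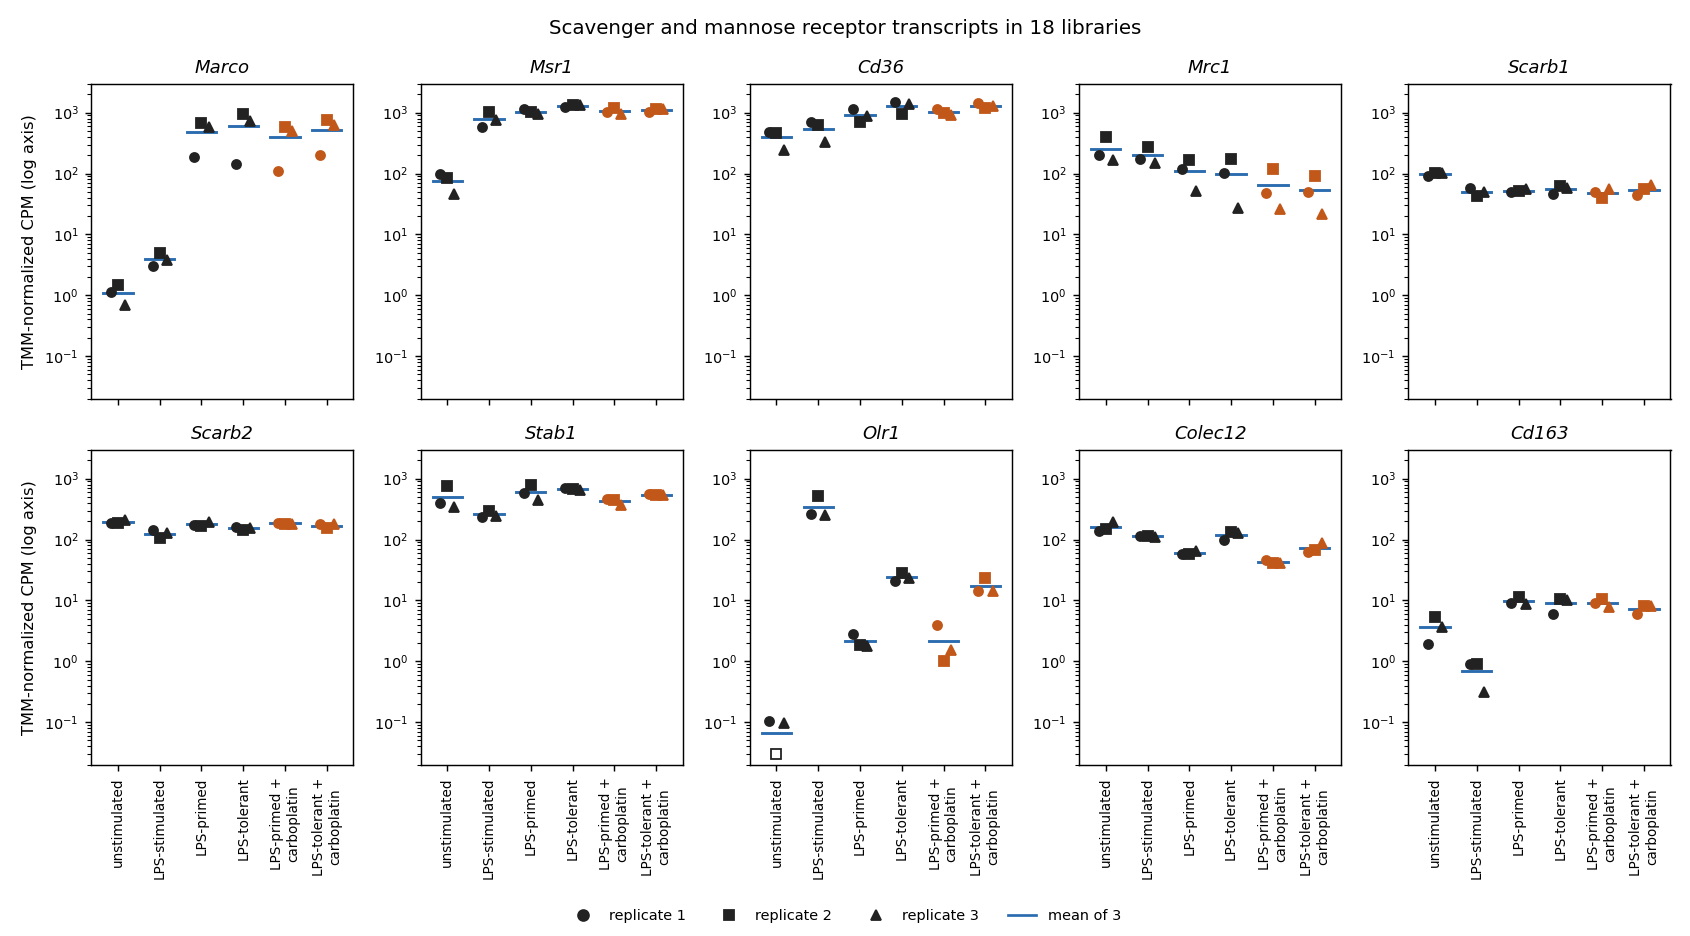
Level of each receptor transcript in TMM-normalized CPM (y axis, log scale) in the 6 groups (x axis), with a point per library, its shape giving the replicate number, and a bar at the mean of 3; orange points had carboplatin, and the open square marks a library with 0 counts. Marco separates the groups with 24 h of LPS from the others, Olr1 is highest after the 10 ng/ml dose alone, and Scarb1 is highest in unstimulated BMDMs.

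Levels below are TMM-normalized CPM, that is CPM corrected for library composition, listed for replicates 1, 2 and 3 in that order. Among the class A members, Marco (chr1:120402267-120432753 on GRCm39, minus strand) was at 1.13, 1.497 and 0.684 CPM in unstimulated and 3.08, 4.91 and 3.81 CPM in LPS-stimulated BMDMs. It was at 184, 664 and 587 CPM in LPS-primed, and 145, 968 and 728 CPM in LPS-tolerant cells. All 12 libraries with 24 h of LPS were thus far above the 6 others, and the lowest of the 12, the carboplatin-treated LPS-primed replicate 1, was at 110 CPM. No neighbouring pair among those 4 groups differed beyond the spread of replicates (adjusted p of at least 0.922), whereas the lowest of them was above LPS-stimulated BMDMs by 6.64 on the log2 scale (adjusted p = 9.24e-06).

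Msr1 (chr8:40034726-40095714, minus strand) was at 98.5, 84.0 and 46.7 CPM in unstimulated BMDMs. It was at 589, 1040 and 763 CPM in LPS-stimulated cells, at 1135, 1009 and 966 CPM in LPS-primed cells and at 1239, 1334 and 1319 CPM in LPS-tolerant cells. All 15 LPS-treated libraries were above the 3 unstimulated ones, and unlike Marco, Msr1 was already high after the 10 ng/ml dose alone. No neighbours among the 5 LPS-treated groups differed in the order of their means (adjusted p of at least 0.18). Colec12, on chromosome 18, went the other way: 136, 149 and 196 CPM in unstimulated, 116, 115 and 109 in LPS-stimulated, 57.8, 57.0 and 65.5 in LPS-primed and 99.9, 133 and 126 CPM in LPS-tolerant BMDMs. The LPS-primed group overlapped neither of the groups that had the 10 ng/ml dose without carboplatin. The Colec12 means were highest in unstimulated BMDMs, then LPS-tolerant, LPS-stimulated, carboplatin-treated LPS-tolerant, LPS-primed and carboplatin-treated LPS-primed, and neither LPS-tolerant and LPS-stimulated cells nor the neighbours among the last 3 groups differed beyond their spread (adjusted p of at least 0.278).

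In class B, Cd36 (chr5:17986432-18094067, minus strand) was at 486, 459 and 248 CPM in unstimulated, 692, 631 and 326 CPM in LPS-stimulated, 1167, 703 and 877 CPM in LPS-primed and 1515, 963 and 1405 CPM in LPS-tolerant BMDMs. The highest unstimulated library lay below the lowest LPS-primed library. In the order of means, the only neighbours that differed were LPS-primed and LPS-stimulated cells, by 0.74 on the log2 scale (adjusted p = 0.0417). Scarb1 (chr5:125353547-125418176, minus strand) was at 91.3, 101 and 103 CPM in unstimulated BMDMs and between 40.1 and 63.7 CPM in the 15 LPS-treated libraries, so that the groups did not overlap. The 5 LPS-treated groups did not differ as neighbours beyond their spread (adjusted p of at least 0.827). Scarb2 (chr5:92589169-92654692, minus strand) varied least, from 108 to 211 CPM over the 18 libraries, with its highest mean in unstimulated (194 ± 14.8 CPM, SD, n = 3) and its lowest in LPS-stimulated BMDMs (126 ± 17.6 CPM). No neighbours in its order differed without the replicate block. With it, LPS-tolerant cells were above LPS-stimulated cells (adjusted p = 0.0238). Exons of Scarb1 and Scarb2 overlap long non-coding RNAs on the opposite strand, and whether strand was used in counting is not given in the sources used here.

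Olr1 (chr6:129462207-129484128, minus strand) had 1, 0 and 1 counts in the unstimulated libraries. After the 10 ng/ml dose alone it was at 260, 516 and 251 CPM, from 2028, 6945 and 2367 counts. In LPS-primed BMDMs it was at 2.84, 1.84 and 1.81 CPM, and in LPS-tolerant BMDMs, which had the same 10 ng/ml dose after priming, at 21.2, 28.2 and 23.8 CPM. Each of the 4 groups was thus separate from the 3 others. The order of means was LPS-stimulated, LPS-tolerant, LPS-tolerant with carboplatin, LPS-primed, LPS-primed with carboplatin and unstimulated, and carboplatin-treated and untreated cells did not differ beyond their spread in the LPS-tolerant (adjusted p = 0.949) or the LPS-primed state (adjusted p = 0.994).

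Stab1 (chr14:30860970-30890598, minus strand) was at 393, 747 and 336 CPM in unstimulated, 237, 299 and 242 in LPS-stimulated, 574, 800 and 439 in LPS-primed and 707, 675 and 650 CPM in LPS-tolerant BMDMs. Its LPS-stimulated libraries were lower than all others, and no other neighbours in its order differed beyond their spread (adjusted p of at least 0.56). Exons of Stab1 overlap those of Nt5dc2 on the opposite strand, so counts could be shared if strand was not used. Cd163 (chr6:124281606-124307560, plus strand) was a low transcript throughout, at 1.95, 5.28 and 3.61 CPM in unstimulated and 0.897, 0.892 and 0.318 CPM in LPS-stimulated BMDMs, the latter from 7, 12 and 3 counts. It was at 9.21, 11.3 and 8.87 CPM in LPS-primed and 5.99, 10.7 and 10.3 CPM in LPS-tolerant cells. The LPS-stimulated group was thus below, and the LPS-primed and LPS-tolerant groups above, all unstimulated libraries. The 4 groups with 24 h of LPS did not differ as neighbours beyond their spread (adjusted p of at least 0.99).

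Mrc1 (chr2:14234151-14336926, plus strand) was at 205, 393 and 168 CPM in unstimulated and 172, 278 and 150 CPM in LPS-stimulated BMDMs. It was at 117, 168 and 51.0 CPM in LPS-primed and 101, 172 and 27.1 CPM in LPS-tolerant cells. With carboplatin it was at 48.6, 117 and 26.1 CPM in LPS-primed and 50.4, 90.4 and 21.3 CPM in LPS-tolerant cells. Neighbouring groups overlapped, and none differed without the replicate block (adjusted p of at least 0.3), since the replicates of a group were up to 6.36-fold apart. The block, which compares libraries of the same replicate number, put LPS-stimulated above LPS-primed cells by 0.98 on the log2 scale (adjusted p = 0.00289).

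Priming with LPS for 24 h was compared with no stimulation to ask what the first long exposure did. Marco, Msr1, Cd36 and Cd163 rose, Scarb1 and Colec12 fell, and Olr1 was higher. These 7 of 10 stand against 25.2% of all genes tested that passed the same threshold, an adjusted p of 0.05 in edgeR's quasi-likelihood test, with 5 members against 12.1% of genes higher and 2 members against 13.1% lower. Olr1 passed the expression filter through its LPS-treated groups alone and so had to differ from unstimulated cells. Its test is not used against them, and 6 of the 9 others passed. Marco is among these 6. Its unstimulated libraries did not meet the filter by themselves, so its selection also rested on the LPS-treated groups. The Marco test rests on 35 counts in unstimulated against 12873 in LPS-primed libraries. The median log2 fold change of all 10 was 0.75, against -0.02 over all tested genes. Marco rose 425-fold, a log2 fold change of 8.73 ± 0.96 (SE, adjusted p = 3.13e-06), and Msr1 13.6-fold (3.76 ± 0.25, adjusted p = 8.78e-09). Cd36 rose 2.31-fold (1.20 ± 0.28, adjusted p = 0.00426) and Cd163 2.68-fold (1.42 ± 0.34, adjusted p = 0.00516). For Olr1, 58 counts in LPS-primed against 2 in unstimulated libraries gave a ratio of normalized levels of 33.8, with an exact 95% interval of 8.94 to 286 that covers counting error only.

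Colec12 fell 2.67-fold on priming (log2 fold change -1.42 ± 0.16, adjusted p = 5.6e-06) and Scarb1 1.89-fold (-0.92 ± 0.17, adjusted p = 0.000736). All 7 of these transcripts moved the same way in 3 of 3 replicates. Mrc1 was lower in 3 of 3 replicates at a log2 fold change of -1.19 ± 0.64 (adjusted p = 0.2), and passed with the replicate block (-1.27, adjusted p = 0.000611). With the block, 8 of the 10 passed against 38.6% of all genes. Beyond the limit of the study, an absolute log2 fold change of 2, 3 of the 10 passed (Marco, Msr1 and Olr1), against 7.47% of all genes. Both of these counts include Olr1, whose test against unstimulated cells is not used. Stab1 had a log2 fold change of 0.30 (adjusted p = 0.426), and without unstimulated replicate 2 of 0.75 (adjusted p = 0.0162). Scarb2 had a log2 fold change of -0.13 (95% interval -0.39 to 0.14). Both tested neutrophil markers (Mmp8 and S100a8), both tested stromal markers (Dcn, 6.75, and Pdgfrb, 2.23) and endothelial Pecam1 (3.77) were also higher with priming, and Kdr (-1.29) and Kit (-5.54) were lower. Dcn, Pdgfrb and Pecam1 were at 0.033, 0.196 and 0.127 CPM in unstimulated cells, and Kit at 0.034 CPM in LPS-primed cells. They passed the filter through groups where they were higher, as Olr1 did, so their tests here are not used. S100a8, at 1.34, 1.23 and 0.684 CPM in unstimulated libraries, also needed its LPS-treated groups to pass, as Marco did. The part of all these markers in these results was not tested. The highest LPS-primed Mmp8 level, 176 CPM, was in replicate 1, where Marco was lowest.

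A single 10 ng/ml dose was compared with no stimulation, as the response of cells that had not met LPS before. Msr1 rose, Scarb1, Scarb2, Stab1, Colec12 and Cd163 fell, and Olr1 was higher. These 7 of 10 stand against 51.2% of all genes, with 2 members against 24.3% of genes higher and 5 against 26.9% lower, and without Olr1 it was 6 of 9. The median log2 fold change of all 10 was -0.43 against -0.09 over all genes. Msr1 rose 10.4-fold (log2 fold change 3.38 ± 0.24, adjusted p = 9.98e-09). Olr1 had 11340 counts against 2, a ratio of 5788 (exact 95% interval 1602 to 47800, counting error only). The interval is wide because unstimulated BMDMs gave 2 counts in all.

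Cd163 fell 5.05-fold (log2 fold change -2.34 ± 0.42, adjusted p = 0.000187), Scarb1 1.96-fold (-0.97 ± 0.17, adjusted p = 0.000183) and Scarb2 1.55-fold (-0.63 ± 0.13, adjusted p = 0.000577). Stab1 fell 1.90-fold (-0.92 ± 0.25, adjusted p = 0.00496), but had a log2 fold change of -0.47 without unstimulated replicate 2 (adjusted p = 0.067). Colec12 fell by 0.50 ± 0.16 (adjusted p = 0.0152). Its call was lost without unstimulated replicate 3 (-0.31, adjusted p = 0.129), without LPS-stimulated replicate 3 (-0.47, adjusted p = 0.0513), and when the fit held only both groups compared (-0.44, adjusted p = 0.0813). Marco was higher in 3 of 3 replicates (1.83 ± 0.94, adjusted p = 0.114), and passed with the block (adjusted p = 0.00205), with DESeq2 (1.87, adjusted p = 0.0377) and when the fit held only both groups (1.89, adjusted p = 0.00596). As on priming, its selection in edgeR also rested on the LPS-treated groups, since its unstimulated libraries did not meet the filter by themselves. Cd36 had a log2 fold change of 0.47 (adjusted p = 0.175), and of 0.74 without LPS-stimulated replicate 3 (adjusted p = 0.0328). Mrc1 had -0.35 (95% interval -1.69 to 0.98). Of the other markers, S100a8 (3.09), Cdh5 (5.44), Pdgfrb (3.56) and Dcn (4.04) were also higher than in unstimulated cells, while Mmp8 had -0.13 (adjusted p = 0.921). Cdh5, Pdgfrb and Dcn were at 0.282, 0.196 and 0.033 CPM in unstimulated cells. They passed the filter through LPS-treated groups, so their tests here are not used. The selection of S100a8 also rested on the LPS-treated groups, as that of Marco did. The part of all these markers was not tested. With the block 8 of 10 passed against 63.2% of all genes, and beyond a log2 fold change of 2 it was 3 of 10 (Msr1, Olr1 and Cd163) against 12% of all genes. Both of these counts include Olr1, whose test is not used, and the 8 also include Marco.

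LPS-tolerant and LPS-stimulated BMDMs ended on the same 10 ng/ml dose and differed in the priming before it. Marco, Msr1, Cd36, Stab1 and Cd163 were higher in LPS-tolerant cells and Olr1 was lower. These 6 of 10 stand against 34.5% of all genes, with 5 members against 16.2% of genes higher and 1 against 18.3% lower. Marco was 153-fold higher (log2 fold change 7.26 ± 0.86, adjusted p = 6.59e-06), Cd163 12.5-fold (3.64 ± 0.41, adjusted p = 3.66e-06), Stab1 2.61-fold (1.39 ± 0.25, adjusted p = 0.000358) and Cd36 2.36-fold (1.24 ± 0.28, adjusted p = 0.00259). Olr1 was 14-fold lower (-3.81 ± 0.35, adjusted p = 4.41e-07). Msr1 was 1.63-fold higher (0.70 ± 0.22, adjusted p = 0.0216).

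The Msr1 difference passed with each sample left out under the replicate block (adjusted p between 0.00248 and 0.0339). Without the block it was lost when LPS-tolerant replicate 2 (adjusted p = 0.0517) or 3 (adjusted p = 0.0533) or LPS-stimulated replicate 1 (0.52, adjusted p = 0.093) or 3 (adjusted p = 0.0662) was left out. Mrc1 was lower in 3 of 3 replicates (-1 ± 0.64, adjusted p = 0.25) and passed with the block (-1.27, adjusted p = 0.000481). Scarb2 (0.28 ± 0.13, adjusted p = 0.0981) passed with the block (0.29, adjusted p = 0.0238) and without LPS-stimulated replicate 1 (0.38, adjusted p = 0.0347). The blocked call held in 2 of 6 fits with a sample left out (adjusted p up to 0.112), and was lost without LPS-tolerant replicate 1 or 2 or LPS-stimulated replicate 2 or 3. With the block 8 of 10 passed against 47.6% of all genes, and beyond a log2 fold change of 2 it was 3 of 10 (Marco, Olr1 and Cd163) against 8.04% of all genes. Scarb1 and Colec12 had log2 differences of 0.16 (95% interval -0.20 to 0.53) and 0.08 (95% interval -0.26 to 0.41). Mmp8, S100a8, Dcn (2.94) and Pecam1 (2.04) were higher in LPS-tolerant cells here as well, and Cdh5 (-1.73), Pdgfrb (-1.84) and Kit (-3.14) lower. Dcn and Pecam1 were at 0.7068 and 0.4001 CPM in LPS-stimulated cells, and Pdgfrb and Kit at 0.6678 and 0.1047 CPM in LPS-tolerant cells. Dcn, Pecam1, Pdgfrb and Kit passed the filter through groups where they were higher, so their tests here are not used. The part of all these markers was not tested.

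The second exposure, LPS-tolerant against LPS-primed BMDMs, moved fewer of the receptors. Olr1 and Colec12 rose, and these 2 of 10 stand against 6.31% of all genes, both among the 3.6% of genes that were higher. Olr1 rose 11.3-fold (log2 fold change 3.49 ± 0.40, adjusted p = 8.55e-05) and Colec12 1.99-fold (0.99 ± 0.16, adjusted p = 0.00141), each in 3 of 3 replicates and with each sample left out. The other 8 had log2 fold changes between -0.22 and 0.50, with adjusted p of at least 0.332, and Cd36 (0.50, 95% interval -0.09 to 1.09) was the farthest from 0. With the block 2 of 10 passed against 18% of all genes, and beyond a log2 fold change of 2 it was 1 of 10 (Olr1) against 0.681%.

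**Figure D3:**
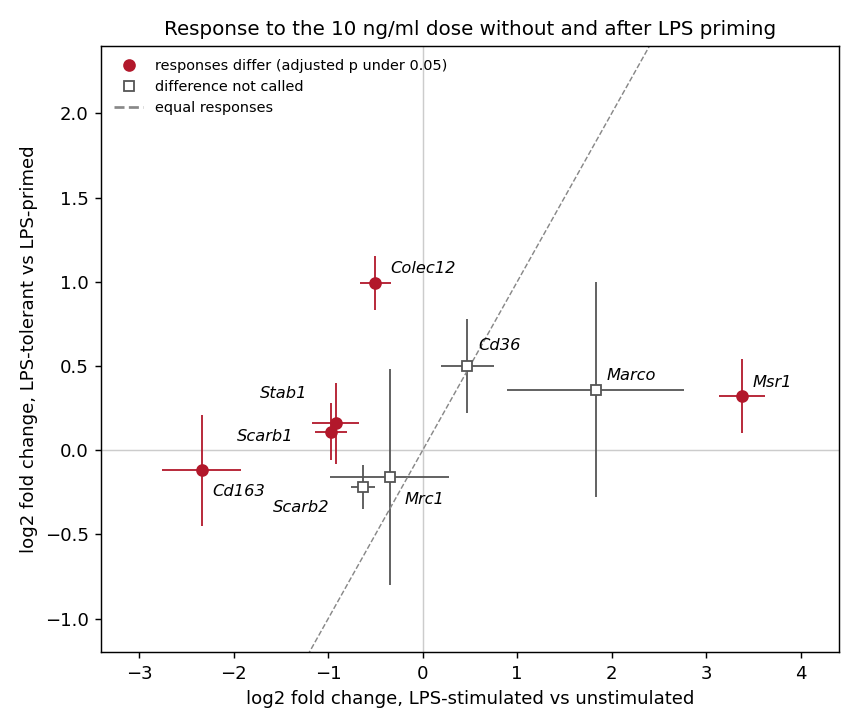
Log2 fold change of 9 receptor transcripts after the 10 ng/ml dose in BMDMs not primed before (x axis, LPS-stimulated against unstimulated) and in LPS-primed BMDMs (y axis, LPS-tolerant against LPS-primed), with bars of 1 SE and a dashed line at equal responses; Olr1 is left out because its unstimulated level rests on 2 counts. Msr1 lies far below the line and Colec12, Cd163, Scarb1 and Stab1 above it, the 5 drawn as filled circles whose responses differed.

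The second response also holds the change of medium before the dose. The difference between the second and the first response was tested as a contrast of these 4 groups. It passed for 6 of 10, against 23.8% of all genes, with 4 members against 10.5% of genes higher and 2 against 13.3% lower, and for 5 of 9 without Olr1. The log2 response of Msr1 was 3.38 on the first and 0.32 on the second exposure, a difference of -3.06 ± 0.32 (adjusted p = 2.55e-06). For Olr1 the ratio of normalized levels was 5788 on the first and 11.3 on the second exposure, with the first resting on 2 unstimulated counts. Colec12 fell on the first and rose on the second exposure, a difference of 1.49 ± 0.23 (adjusted p = 0.000119). Cd163, which fell on the first exposure, had a difference of 2.22 ± 0.53 (adjusted p = 0.00555), Scarb1 one of 1.08 ± 0.24 (adjusted p = 0.00359) and Stab1 one of 1.09 ± 0.35 (adjusted p = 0.0303).

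For Stab1 the call was lost without any of 6 samples, unstimulated replicate 2, LPS-primed replicates 1 and 3, LPS-tolerant replicate 1 and LPS-stimulated replicates 1 and 3 (adjusted p between 0.056 and 0.105), and it held in all 12 such fits with the block. With the block, Marco (-1.63, adjusted p = 0.0189) and Scarb2 (0.41, adjusted p = 0.0262) also passed, making 8 of 10 against 36.2% of all genes. With a sample left out the blocked call held for Marco in 10 of 12 fits (not without unstimulated replicate 2 or 3, adjusted p up to 0.0944). It held for Scarb2 in 5 of 12 (adjusted p up to 0.078), and was lost without unstimulated, LPS-tolerant or LPS-stimulated replicate 2, unstimulated or LPS-stimulated replicate 3, or LPS-primed or LPS-tolerant replicate 1. Differences beyond 2 on the log2 scale passed for 3 of 10 (Msr1, Olr1 and Cd163), against 8.01% of all genes. The 8 and the 3 both include Olr1, whose test is not used. The 8 also include Marco, which needed its LPS-treated groups to pass the filter. Without the block Marco and Scarb2 were at -1.47 (adjusted p = 0.394) and 0.41 (adjusted p = 0.116), and Scarb2 passed without LPS-stimulated replicate 1 (0.51, adjusted p = 0.0451). Cd36 responded by 0.47 and 0.50 to the first and second dose, a difference of 0.03 (95% interval -0.80 to 0.87), and Mrc1 had a difference of 0.19 (95% interval -1.70 to 2.09). The responses of Cdh5 (-3.79), Pdgfrb (-4.07) and Kdr (1.88) also differed, and their part was not tested. Cdh5 and Pdgfrb were at 0.282 and 0.196 CPM in unstimulated cells and passed the filter through LPS-treated groups.

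**Figure D4:**
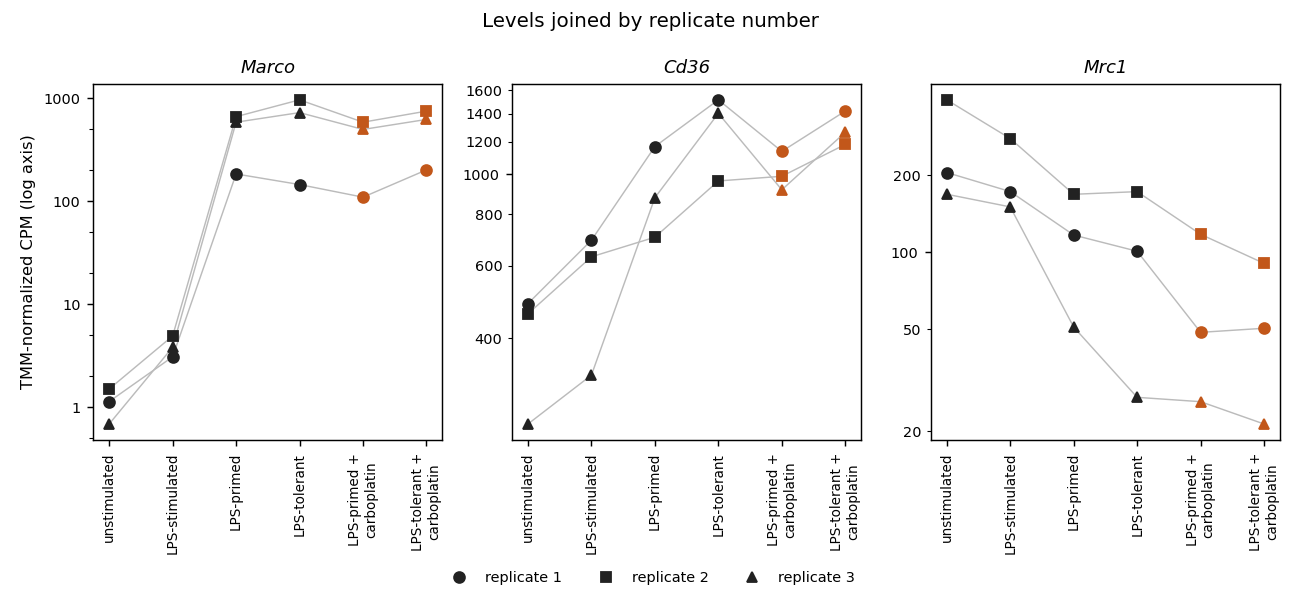
Levels of Marco, Cd36 and Mrc1 in TMM-normalized CPM (y axes, log scale) in the 6 groups (x axis), with grey lines joining libraries of the same replicate number and orange points for carboplatin. Replicate 2 is the highest for Marco and Mrc1 in every group and replicate 1 for Cd36, and Mrc1 is lowest in replicate 3 throughout.

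The replicates kept an order for 3 of the receptors. Mrc1 was highest in replicate 2 and lowest in replicate 3 in 6 of 6 groups, and the gap between them ranged from 1.85-fold in LPS-stimulated to 6.36-fold in LPS-tolerant BMDMs. Marco was highest in replicate 2 in 6 of 6 groups and lowest in replicate 1 in 5, and Cd36 was highest in replicate 1 in 6 of 6. What the replicate numbers share (a mouse, a culture day) is not given in the sources used here. Mmp8, of the neutrophil markers, was highest in replicate 1 in 3 of the 4 groups with 24 h of LPS and lowest in replicate 2 in all 4.

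**Figure D5:**
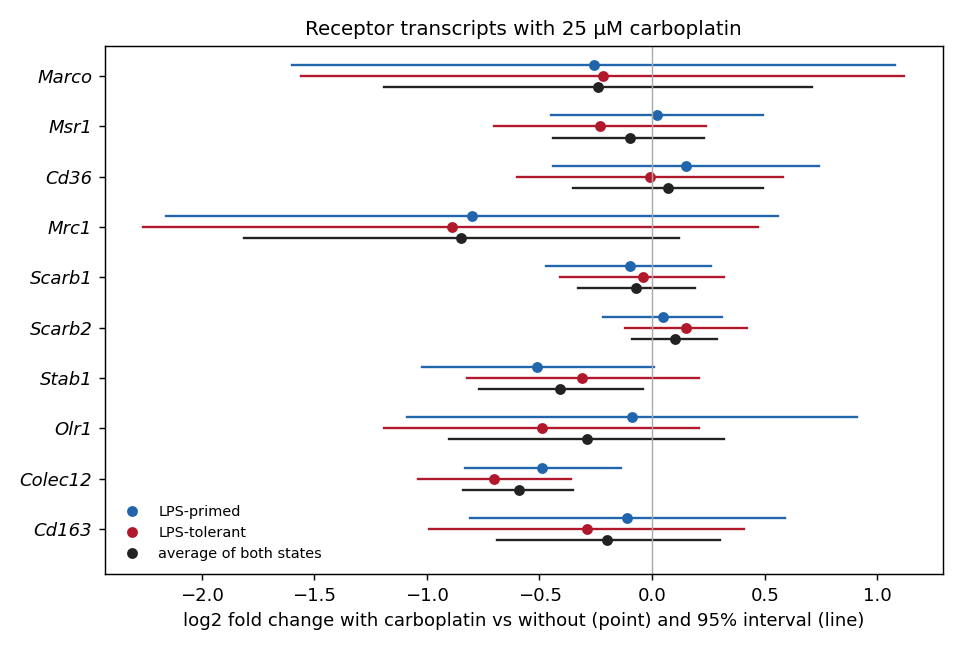
Log2 fold change of each receptor transcript with 25 µM carboplatin against without (x axis), as points with 95% intervals, in LPS-primed BMDMs, in LPS-tolerant BMDMs and as the average of both. The Colec12 interval lies below 0 in all 3, and that of Stab1 in the average alone.

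Carboplatin was compared within LPS-primed and within LPS-tolerant BMDMs, to ask whether the drug altered either state. In LPS-primed cells 0 of 10 receptors passed in edgeR, against 0.372% of all genes, and 0 passed in DESeq2. At an unadjusted p under 0.05 there was 1, Colec12 (log2 fold change -0.49 ± 0.16, adjusted p = 0.387), near the 6.86% of all genes at that threshold. It was at 45.6, 41.9 and 41.4 CPM with carboplatin against 57.8, 57.0 and 65.5 CPM without. In LPS-tolerant cells 0 of 10 passed, against 0.425% of all genes, and Colec12 was again the 1 receptor at an unadjusted p under 0.05 (-0.70 ± 0.16, adjusted p = 0.0787), against 6.73% of all genes. It was at 62.8, 68.4 and 88.8 CPM with carboplatin against 99.9, 133 and 126 CPM without. It passed with the block (-0.71, adjusted p = 0.00765), as the 1 of 10 against 1.77% of all genes, with DESeq2 (-0.72, adjusted p = 0.00325) and without carboplatin-treated LPS-tolerant replicate 3 (-0.87, adjusted p = 0.0448). The blocked call held in 3 of 6 fits with a sample left out (adjusted p up to 0.0804), and was lost without LPS-tolerant replicate 2 or carboplatin-treated replicate 1 or 2.

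The carboplatin effects in both states did not differ detectably for any of the 10. In edgeR 0 passed, 0 of all genes passed (0%), and 0 of the 10 but 131 (1.16%) of all genes had an unadjusted p under 0.05, while DESeq2 also called 0 of the 10. The average of both carboplatin effects was added after the data were seen. Colec12 fell 1.51-fold on average (log2 fold change -0.59 ± 0.11, adjusted p = 0.00839), the 1 of 10 that passed against 1.99% of all genes. Mrc1 was lower with carboplatin in 3 of 3 replicates in each state, at log2 fold changes of -0.80 ± 0.64 in LPS-primed and -0.89 ± 0.65 in LPS-tolerant cells. Its average of -0.85 ± 0.46 (adjusted p = 0.508) passed with the block (-0.86, adjusted p = 0.00727), where 2 of 10 passed against 6.24% of all genes. Stab1 averaged -0.41 (adjusted p = 0.347, 95% interval -0.77 to -0.04). The averaged intervals excluded changes beyond 0.50 on the log2 scale in either direction for Msr1, Cd36, Scarb1 and Scarb2, but those of Marco (-1.19 to 0.71) and Olr1 (-0.90 to 0.32) did not. The neutrophil markers summed to 49.6 to 336 CPM in carboplatin-treated and 28.8 to 223 CPM in untreated LPS-primed cells, and their part was not tested.

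Of 20 other scavenger and related receptors, 13 were tested. On priming 5 rose and 4 fell, against 25.2% of all genes called. On the first exposure 4 rose and 2 fell, a share below the 51.2% of all genes. Between LPS-tolerant and LPS-stimulated cells 3 were higher and 6 lower (3 and 7 with the block), against 34.5%, and on the second exposure 1 rose and 0 fell (2 and 2 with the block), against 6.31%. With the block the shares of all genes were 38.6%, 63.2%, 47.6% and 18% in this order, and both sets of shares apply to the lists that follow. With carboplatin 0 passed in LPS-primed and in LPS-tolerant cells in edgeR and in DESeq2, with 0 and 2 at an unadjusted p under 0.05. On priming Ly75, the endocytic lectin DEC-205, rose by 4.13 ± 0.48 on the log2 scale and Cd14, the LPS co-receptor, by 2.53 ± 0.52. Cd5l, a secreted protein of the scavenger receptor cysteine-rich family, fell by 4.70 ± 0.51 and Clec7a, the β-glucan receptor dectin-1, by 3.44 ± 0.41. Against LPS-stimulated cells, LPS-tolerant cells were higher in Ly75 (2.57 ± 0.43) and Scarf1 (0.80 ± 0.17) and lower in Cd5l (-5.21 ± 0.53) and Pla2r1 (-3.14 ± 1.03). Pla2r1 was at 0.15 CPM in LPS-tolerant against 1.45 CPM in LPS-stimulated cells, so its difference rests on few counts. It passed the filter through groups where it was higher, so its test is not used. The counts of lower genes on priming and in this comparison include it. The median log2 fold change of the 13 on priming was -0.03, against -0.02 over all genes.

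Of 21 genes of lipid uptake and export, 20 were tested. On priming 6 rose and 5 fell (8 and 6 with the block), on the first exposure 4 and 8, on the second exposure 3 and 1 (4 and 1 with the block), and 8 were higher and 4 lower (9 and 5 with the block) in LPS-tolerant relative to LPS-stimulated cells. On the first exposure Cav1, the caveolar coat protein, rose by 5.87 ± 0.45 on the log2 scale and Acsl1, which activates fatty acids, by 3.71 ± 0.26. Abcg1, a cholesterol exporter, fell by 3.07 ± 0.19 and Rxra, a nuclear receptor that pairs with lipid sensors, by 2.45 ± 0.42. Plin2, which coats lipid droplets, was higher by 3.16 ± 0.18 in LPS-tolerant than in LPS-stimulated cells, as was Rxra by 2.71 ± 0.42. Lpl (-2.45 ± 0.37) and Pparg (-2.13 ± 0.41), a regulator of Cd36 transcription, were lower there. With carboplatin 0 of the 20 passed in LPS-primed and in LPS-tolerant cells in edgeR and in DESeq2, with 1 and 3 at an unadjusted p under 0.05, and with the block 1 was lower in each (Fabp5, named after its values were seen).

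Of 10 genes that handle haem and haemoglobin iron, the cargo of CD163, 9 were tested. On priming 4 rose and 1 fell (4 and 3 with the block), on the first exposure 2 and 4, on the second exposure 0 and 1, and 5 were higher and 1 lower (7 and 1 with the block) in LPS-tolerant relative to LPS-stimulated cells. Hp, haptoglobin, rose by 3.23 ± 0.70 on the first exposure and Fth1, a ferritin chain, by 0.57 ± 0.16, while Slc40a1, the iron exporter, fell by 2.74 ± 0.43 and Blvra by 0.79 ± 0.17. In LPS-tolerant cells Hp (4.57 ± 0.60) and Hmox1 (2.98 ± 0.26), the haem-degrading enzyme, were higher and Slc40a1 lower (-2.64 ± 0.57) than in LPS-stimulated cells. With carboplatin 0 of 9 passed in LPS-primed cells in edgeR and in DESeq2, with 1 at an unadjusted p under 0.05. In LPS-tolerant cells 1 was higher, Slc40a1, which was named after its values were seen (log2 fold change 3.55 ± 0.56, adjusted p = 0.00448). Slc40a1 was at 0.32 CPM in LPS-tolerant, 4.03 CPM in carboplatin-treated LPS-tolerant and 2.10 CPM in LPS-stimulated cells. The low LPS-tolerant level limits the size of both of its differences from these groups.

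Of 17 regulators of scavenger receptor genes and of receptor shedding, all were tested. On the first exposure 6 rose and 6 fell (7 and 6 with the block). Cebpb (3.31 ± 0.36) and Irf4 (3.21 ± 0.56) rose most, and Tfeb (-4.12 ± 0.20) and Maf (-2.49 ± 0.46), all of them transcription factors, fell most. On priming 2 rose and 3 fell (4 and 6 with the block), on the second exposure 1 rose and 0 fell (2 and 1 with the block), and 5 were higher and 6 lower (8 and 6 with the block) in LPS-tolerant relative to LPS-stimulated cells. With carboplatin 0 passed in either state in edgeR and in DESeq2, with 0 at an unadjusted p under 0.05, and with the block 1 was lower in LPS-tolerant cells (Mitf, a transcription factor named after its values were seen, -0.73, adjusted p = 0.0225). The second and first responses differed for 5 of 13 other receptors, 8 of 20 lipid genes, 3 of 9 haem genes and 7 of 17 regulators, against 23.8% of all genes. With the block it was 6, 10, 5 and 11 in this order, against 36.2%. Lrp1 stands in 2 of these lists, Cd14 and Cd68 are also macrophage markers, and Stab2, of the other receptors, is also an endothelial marker.

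The genes whose levels were most like those of each receptor over the 18 libraries are given as a description, by Pearson's r of log2 CPM. They were Serpinb8 (0.978), Aoah (0.977) and Mgarp (0.976) for Marco, and Rnf149 (0.987), Mmp14 (0.987) and Sod2 (0.978) for Msr1. For Olr1 they were Chic2 (0.983), Rai14 (0.983) and Itga5 (0.970), and for Cd36 Ctsl (0.943), Plbd1 (0.941) and Slc22a4 (0.935). For Cd163 they included Appl2 (0.972) and Pag1 (0.941). They were for Scarb2 Pik3r2 (0.948), Tmem59 (0.943) and Smpd1 (0.938), and for Scarb1 Slc15a4 (0.944), Dgkd (0.923) and Pald1 (0.923). For Colec12 they were Xylt1 (0.911), Myo1e (0.903) and Eya4 (0.88), and for Stab1 Tmem104 (0.868), Dnm2 (0.864) and Pkdcc (0.862). Between the receptors themselves, r was 0.81 for Marco with Cd36, 0.79 for Marco with Msr1 and for Stab1 with Cd163, and -0.87 for Msr1 with Scarb1 and for Scarb2 with Olr1. These points share the 6 groups and the library scaling, so the values describe the pattern over groups.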

How the data were processed

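The deposited files hold raw counts of read pairs per gene, 1 file per sample. The authors prepared TruSeq stranded mRNA libraries, mapped the reads with HISAT2 (genome GRCm39) and obtained counts from HTSeq-count, and versions, annotation and strand option are not given in the sources used here. The 5 summary lines of HTSeq-count, 41.5% to 46.9% of all read pairs, were left out. Samples were grouped by their labels, and the length of exposures was taken from the study's methods and schematics. Replicates of a group differed well beyond sampling noise (chi-square per gene at least 19.3), so that none was counted as a repeat of another. A transcript with 10 counts has a wide counting error, which limits Cd163, Olr1 and Marco at their low levels, and Slc40a1 and Pla2r1 in LPS-tolerant cells.

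Differences were tested in edgeR 4.0.16 (R 4.3.3) with the two-sided quasi-likelihood test after TMM scaling, keeping genes that passed filterByExpr at its defaults (count 10, total 15), in 1 fit of all 18 samples with a mean per group. P-values were adjusted by the Benjamini-Hochberg method across the 11305 genes tested, and a gene was called at an adjusted p under 0.05. Log2 fold changes use a prior count of 0.125. Per-kb levels use exon lengths of GENCODE vM39, with the exons of all annotated transcripts of a gene merged. On counts simulated without a replicate effect, the fit recovered most of the larger known changes. It was not tried on counts with replicate effects like those seen here. The 10 genes and all lists were chosen with earlier results of these data known.

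The study's text names no pairing. After removal of group means, same-numbered samples correlated between 0.18 and 0.57 in all 18 pairs of samples from groups compared (mean 0.40), and over 0.1 in 44 of the 45 pairs of all groups. The numbers were therefore taken to pair the samples, from this check and not from a stated design, and values with the replicate number as a block are given where they change a call. The median log2 fold change of all genes moved from -0.02 to -0.26 on priming, from -0.09 to -0.43 on the first exposure and from 0.06 to 0.30 in the difference of responses when library size alone replaced TMM.

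Every receptor was described. From each further list, the text names the 2 genes with the largest change in each direction in the comparisons with most calls, and for the 9 receptors called in a comparison the 3 genes with the highest r, of which 1 is not reported here. Alternatives were RLE size factors (those of DESeq2), library size alone, no filter, DESeq2 1.42.0, fits of the groups compared alone, the replicate block, the limits of the study (an absolute log2 fold change above 2 with an adjusted p under 0.05, or 0.25 for carboplatin), and leaving out each sample. Promoters were searched in RefSeq sequences of GRCm38.p6.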

Additional observations from a re-analysis of the deposited data

Results flagged for a closer look

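For 6 receptors the log2 response to the 10 ng/ml dose differed between BMDMs primed before and BMDMs not primed, by the test of the difference itself in edgeR. The difference was -3.06 for Msr1, -8.62 for Olr1 (a fitted value that depends on the prior count, since unstimulated cells had 2 counts, from a test not used in the report because Olr1 passed the expression filter through its LPS-treated groups alone), 1.08 for Scarb1, 1.09 for Stab1, 1.49 for Colec12 and 2.22 for Cd163. The 4 that were higher had each fallen on the first exposure. With the replicate block the values were -3.06, -8.60, 1.08, 1.08, 1.47 and 2.20 in the same order, and all 6 passed. Groups of 3 samples are too small for a test of single outlying libraries.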

How the results depend on the processing

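No called value changed direction under any alternative, while 98 of 1690 values compared changed sign without a call in either fit. With RLE size factors and with no filter, all 80 fold changes compared kept their side of the threshold, and DESeq2 (Marco on the first exposure, Colec12 with carboplatin in LPS-tolerant cells) and library size alone (Scarb2 on priming, -0.36, and in the difference of responses, 0.64) each added 2 calls. Fits of the groups compared alone added 1 (Marco) and lost 2 (Colec12 on the first exposure, Stab1 in the difference of responses), and the cause was not tested. Under the limits of the study the receptors called fell from 7 to 3 on priming, 7 to 3 on the first exposure, 6 to 3 between LPS-tolerant and LPS-stimulated cells, 2 to 1 on the second exposure and 6 to 3 in the difference of responses, because most changes are below a log2 fold change of 2. The carboplatin comparison in LPS-tolerant cells went from 0 to 1 receptor (Colec12) with the replicate block and with DESeq2, and between 0 and 1 when a sample was left out. The averaged carboplatin effect went from 1 to 2 with the block. The block changed no call of a receptor other than those given in the report, which also gives the list counts it moved. Leaving out each sample gave 7 to 8 receptors on priming, 6 to 7 on the first exposure, 5 to 6 between LPS-tolerant and LPS-stimulated cells, 2 on the second exposure, 5 to 6 in the difference of responses, and 0 in the carboplatin comparison of LPS-primed cells and in the difference of carboplatin effects. The counts on priming, on the first exposure and in the difference of responses include Olr1, whose tests against unstimulated cells are not used. Depth limits statements on Olr1 in unstimulated cells (2 counts) and Cd163 in LPS-stimulated cells (22 counts).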
